A study of Mus musculus with 6 samples.

Results

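The genes described here are 37 targets of the transcription factor p53, followed from their gene ends and promoters out to distal regions in mouse thymus. They were taken as a list of symbols and matched to the annotated protein-coding genes of the mouse, which gave 37 of 21631. Open chromatin was read at these genes in 2 ways. The first was whether a peak summit lay within 1 kb of an annotated gene end. The second was which merged regions of open chromatin, made by extending every summit by 250 bp per side and joining overlaps over all libraries, lay in the gene or within 20 kb of it. The second measure gave 227 regions, of 73702 in all, at 36 of the 37 genes.

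p53 is activated by DNA damage and other stress, and binds DNA as a tetramer at response elements made of paired decamers. Its targets arrest the cell cycle, start cell death, repair DNA, adjust metabolism and feed back on p53 itself. Thymocytes, the immature T cells that fill the thymus, are among the cells most ready to die after p53 is activated, and mice without p53 are prone to thymic lymphoma.

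The assay was ATAC-seq, in which a transposase inserts sequencing adapters into accessible DNA. Both groups were thymus of mice aged 4 weeks, with a germline change of p53 and a mixed background of 50% BALB/C and 50% C57BL6. The first group carried the AD allele, which the series calls dimeric, over a null allele (p53 AD/-), and the second was p53 -/- (called null here). Each had 3 libraries. The null allele was therefore common to all 6 libraries, no group with wild-type p53 was used here, and the labels name no treatment or irradiation. Nothing in the labels says that the libraries came from different mice, so the spread between libraries may be technical.

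The deposited lists held 44496 to 60160 summits per library, and AD/- library 3 had the shortest. Read depth is unknown, so a summit that is missing from a library was not detected there and is no sign of closed DNA. All 11 thymocyte marker genes were open at a gene end in every library, compared with 1 of 4 B cell, 1 of 4 erythroid and 2 of 5 endothelial and mesenchymal markers. Myeloid and thymic epithelial markers were each found at 1 to 3 of 5 genes per library. In bulk tissue, fewer cells of a type and less open DNA per cell cannot be told apart. Scores are described below as percentiles within their own library, where 100 is the highest score, and are not compared between libraries as a change.

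Promoter sequences were looked up by symbol in RefSeq's table on GRCm38.p6, which matched 29 of the 37 genes with 38 start sites. Trp53inp1, Zmat3, Perp, Tnfrsf10b, Ddb2, Xpc, Rrm2b and Gls2 were not matched, and for these 8 a gene-end summit was not assigned to the 5′ or the 3′ end. The 250 bases before 8 of the start sites are printed 5′ to 3′ on the gene's own strand. They show the pair of decamers at the upstream start of Cdkn1a beside its inner start, which has none, and then 6 start sites of other genes whose window holds a single decamer. Capitals mark exact matches to the p53 decamer consensus, and in the inner Cdkn1a sequence the GC box GGGCGG. No mismatch was allowed, so a near match beside a marked decamer stays in lower case.
Cdkn1a upstream start (chr17:29090729-29090978, plus strand): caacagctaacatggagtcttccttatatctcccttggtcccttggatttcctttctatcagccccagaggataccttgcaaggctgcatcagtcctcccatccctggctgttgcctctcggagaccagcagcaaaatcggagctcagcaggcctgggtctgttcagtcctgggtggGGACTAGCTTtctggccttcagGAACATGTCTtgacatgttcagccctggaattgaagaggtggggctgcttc
Cdkn1a inner start (chr17:29093519-29093768, plus strand): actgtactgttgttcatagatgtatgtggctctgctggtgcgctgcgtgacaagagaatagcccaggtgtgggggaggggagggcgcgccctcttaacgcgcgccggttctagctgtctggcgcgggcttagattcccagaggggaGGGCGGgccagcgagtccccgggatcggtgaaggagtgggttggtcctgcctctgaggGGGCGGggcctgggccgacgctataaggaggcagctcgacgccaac
Ccng1 (chr11:40755287-40755536, minus strand): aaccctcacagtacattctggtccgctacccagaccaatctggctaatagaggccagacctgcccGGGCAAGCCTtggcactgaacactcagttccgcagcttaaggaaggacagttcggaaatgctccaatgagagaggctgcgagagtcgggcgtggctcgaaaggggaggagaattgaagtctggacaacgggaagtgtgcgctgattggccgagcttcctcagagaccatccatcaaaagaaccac
Gadd45a (chr6:67037408-67037657, minus strand): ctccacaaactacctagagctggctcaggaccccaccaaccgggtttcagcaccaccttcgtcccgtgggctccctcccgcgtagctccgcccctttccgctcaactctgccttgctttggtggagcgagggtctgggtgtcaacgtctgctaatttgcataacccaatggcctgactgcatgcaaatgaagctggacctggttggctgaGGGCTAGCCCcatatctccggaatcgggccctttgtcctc
Ppm1d (chr11:85311004-85311253, plus strand): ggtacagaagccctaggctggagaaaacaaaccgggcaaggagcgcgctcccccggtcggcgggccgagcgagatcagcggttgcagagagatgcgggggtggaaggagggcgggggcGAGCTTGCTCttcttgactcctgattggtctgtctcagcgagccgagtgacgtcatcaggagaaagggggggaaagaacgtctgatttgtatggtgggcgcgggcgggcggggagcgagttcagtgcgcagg
Ei24 (chr9:36797335-36797584, minus strand): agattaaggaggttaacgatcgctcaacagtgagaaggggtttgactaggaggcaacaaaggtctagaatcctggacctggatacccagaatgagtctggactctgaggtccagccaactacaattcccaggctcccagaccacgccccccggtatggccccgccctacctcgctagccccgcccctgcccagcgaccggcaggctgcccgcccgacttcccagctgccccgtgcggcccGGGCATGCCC
Sesn1 inner start (chr10:41887189-41887438, plus strand): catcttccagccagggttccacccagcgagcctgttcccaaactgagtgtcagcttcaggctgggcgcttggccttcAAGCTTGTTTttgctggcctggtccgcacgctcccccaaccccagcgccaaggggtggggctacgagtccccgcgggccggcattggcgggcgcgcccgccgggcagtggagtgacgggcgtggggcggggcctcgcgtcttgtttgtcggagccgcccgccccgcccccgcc
Polk inner start (chr13:96519188-96519437, minus strand): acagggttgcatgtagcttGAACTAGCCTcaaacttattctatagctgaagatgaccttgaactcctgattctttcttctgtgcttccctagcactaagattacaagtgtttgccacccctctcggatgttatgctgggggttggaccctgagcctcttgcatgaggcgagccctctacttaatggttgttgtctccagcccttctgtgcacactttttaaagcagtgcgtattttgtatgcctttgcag

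Most of these genes were open at a gene end in both genotypes. Of the 37 genes, 31 (83.8%) had a summit within 1 kb of a gene end in every library, 4 had one in some libraries, and 2, Cdkn1a and Eda2r, had none. Over all 21631 protein-coding genes the shares were 52.6%, 6.7% and 40.7%. The AD/- libraries 1, 2 and 3 had such a summit at 34, 34 and 32 of the genes and the null libraries at 35, 34 and 34, which is 90.1% ± 3.12 and 92.8% ± 1.56 (SD, n = 3 each). The ranges overlapped. No gene had a gene-end summit in all 3 libraries of a genotype and in none of the other. Over all genes, 0.0185% were called in that way for AD/- and 0.0324% for null. A single gene seen in 3 against 3 libraries cannot go below an exact p of 0.10, so these calls are descriptions.

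**Figure D1:**
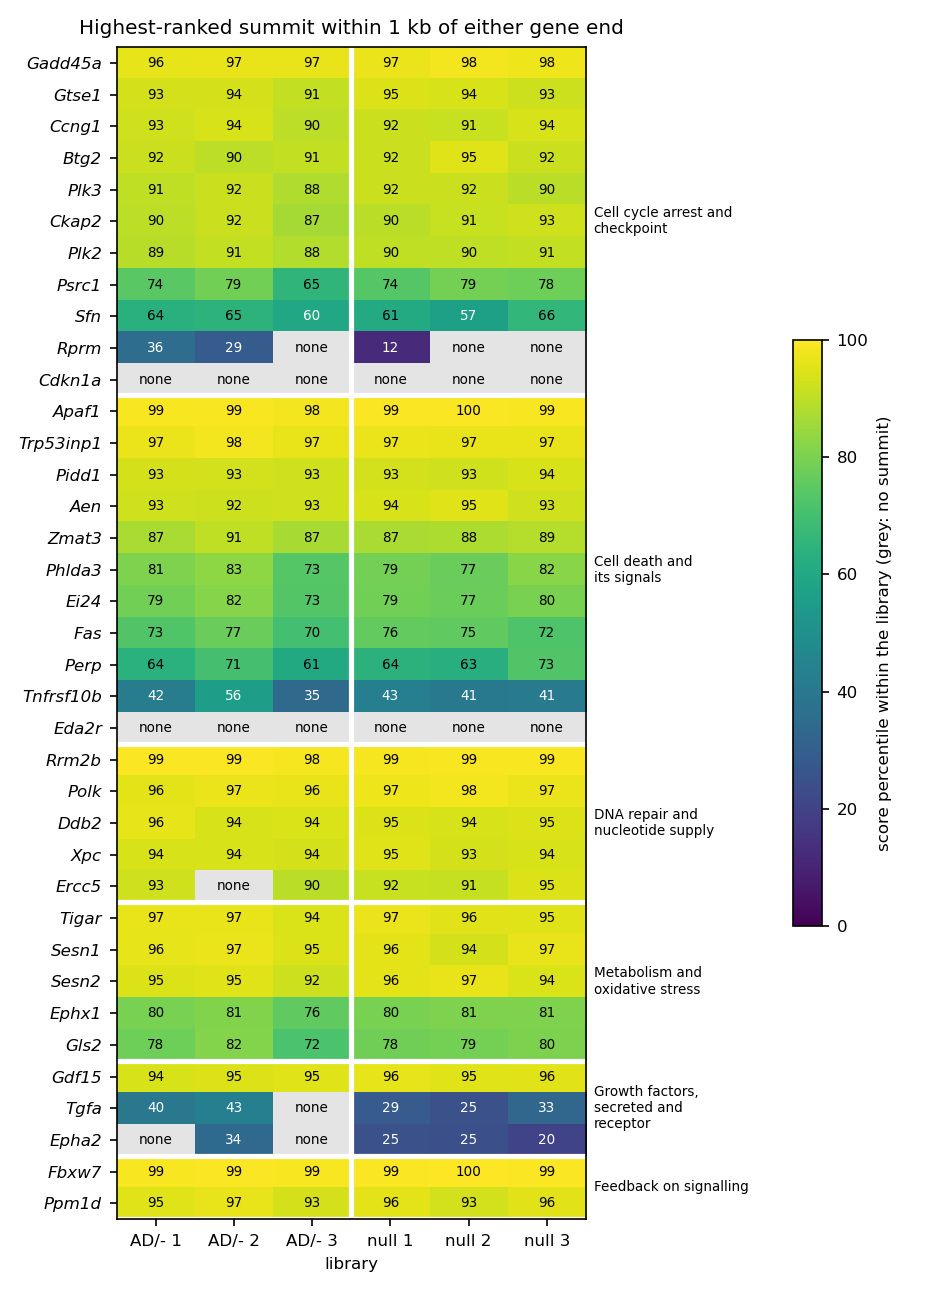
Score percentile of the highest-ranked summit within 1 kb of either end of each gene, by library, with genes grouped by role and grey cells where no summit was found. Grey cells fill the rows of Cdkn1a and Eda2r, and appear in some libraries at Rprm, Ercc5, Tgfa and Epha2, while 31 genes have a summit in all 6 libraries.

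Among the 11 genes of cell cycle arrest and checkpoints, 9 had a gene-end summit in every library. Gadd45a, a stress sensor that acts in growth arrest, had the highest ranks of the group, at percentiles of 96.3, 96.6 and 96.6 in the AD/- libraries and 97.0, 98.3 and 97.5 in the null libraries. Gtse1, a microtubule-associated protein that restrains p53 in G2, followed at 93.4, 93.6 and 90.9 in AD/- and 94.6, 93.9 and 92.6 in null. The Gtse1 summit was also within 1 kb of an end of Ttc38. Both genes stood near the top of every list. The genotypes overlapped at Gtse1, while at Gadd45a each null rank was above each AD/- rank, and ranks from lists of different lengths measure no change. The share of all genes whose ranks separate in this way was not computed. Ccng1, the cyclin G1 gene, ranged from 90.2 to 94.1 over the 6 libraries. The antiproliferative gene Btg2 stood at 92.1, 90.1 and 90.7 in AD/- and 92.0, 95.0 and 91.9 in null. The polo-like kinase genes Plk3 and Plk2 ranged from 87.9 to 92.1 and from 88.4 to 90.8. Ckap2, which encodes a spindle protein, ranged from 86.7 to 92.6. Psrc1, which encodes another spindle protein, stood lower, at 65.4 to 79.2.

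Sfn, Rprm and Cdkn1a differed from this pattern. Sfn encodes 14-3-3 sigma, which holds cell cycle kinases out of the nucleus. Its highest-ranked summit was beside the 3′ end of the gene, at percentiles of 63.6, 64.6 and 59.6 in AD/- and 61.1, 56.7 and 66.3 in null. A second, lower summit lay 90 to 286 bp inside the start site at percentiles of 21.1 to 29.0. Rprm, which encodes the G2 arrest protein reprimo, had a summit in AD/- library 1 (77 bp before the start, percentile 35.7), AD/- library 2 (53 bp, 29.3) and null library 1 (59 bp, 12.4), and in none of the other 3 libraries. It was the only region in or within 20 kb of Rprm in any library, at chr2:54085355-54085879.

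Cdkn1a encodes p21, the inhibitor of cyclin-dependent kinases through which p53 stops the cell cycle. The gene lies at chr17:29090979-29100722 on the plus strand and has 2 annotated start sites 2790 bp apart. The upstream start, whose window holds the pair of decamers printed above, had no summit within 1 kb in any library. The inner start at 29093769 had a summit 65 bp before it in AD/- library 1 (percentile 43.9), 22 bp before it in AD/- library 3 (43.7) and 39 bp before it in null library 1 (56.8). AD/- library 2 and null libraries 2 and 3 had none there, so the inner start split both genotypes. Open DNA in every library lay farther off. A region centred 8815 bp upstream of the gene stood at percentiles of 79.4, 82.9 and 75.7 in AD/- and 80.3, 83.9 and 82.3 in null. A region in the gene body, 1789 to 1814 bp past the inner start, stood at 82.7, 85.2 and 78.8 in AD/- and 84.6, 83.4 and 85.3 in null. A weaker region 17601 bp downstream, at percentiles of 14.8 to 53.9, completed the 3 regions found in every library. The 2 remaining regions, 11796 bp upstream and 11202 bp downstream, were each found in 2 libraries of either genotype.

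**Figure D2:**
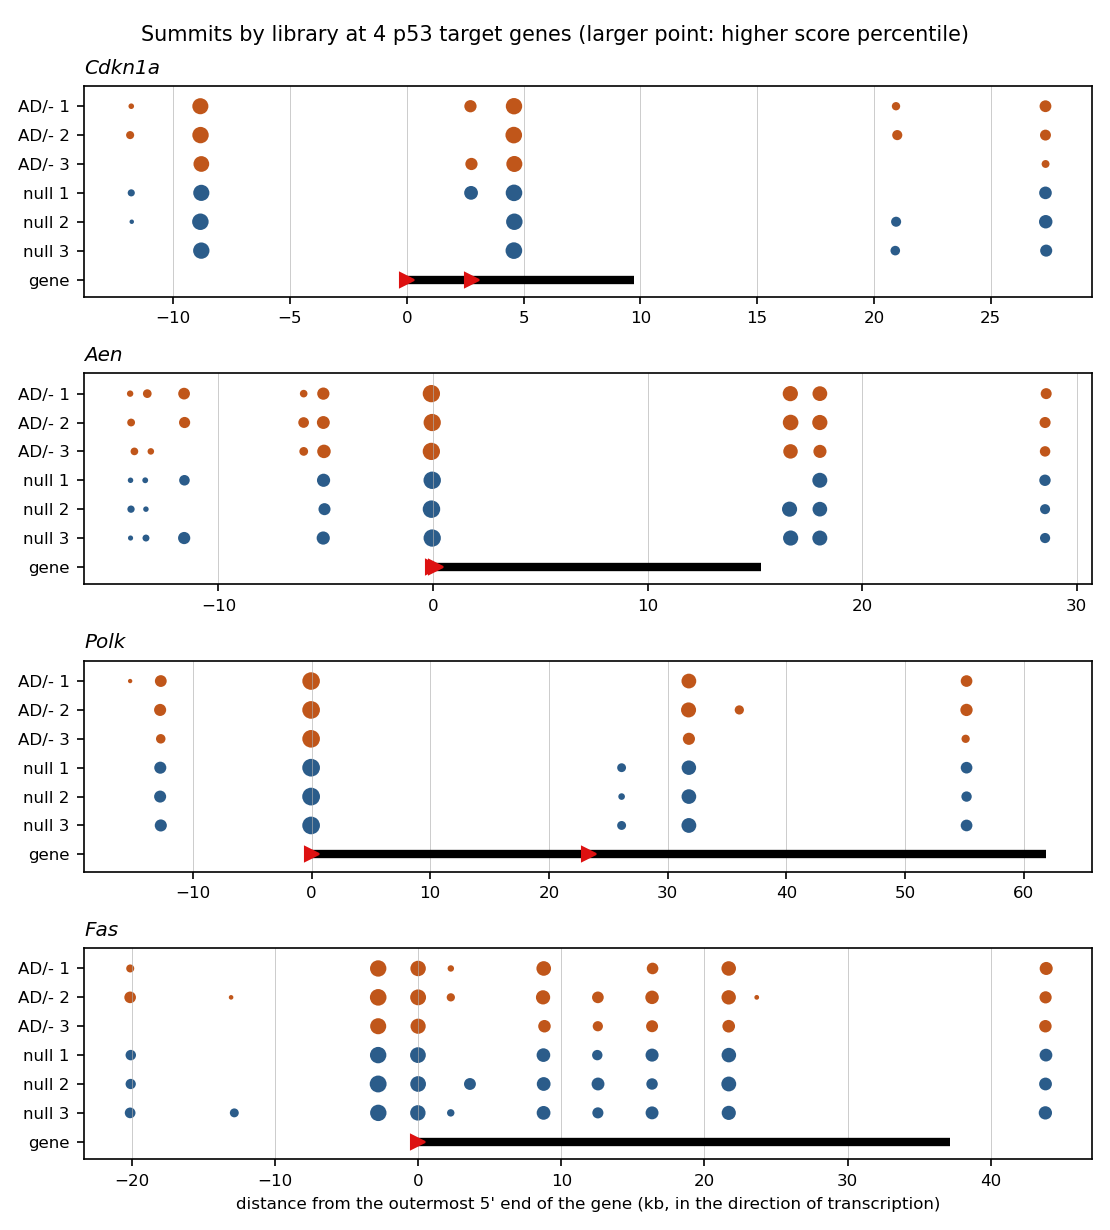
Summits at Cdkn1a, Aen, Polk and Fas by library, with distance from the outermost 5′ end of the gene in kb in the direction of transcription, larger points for higher score percentiles, the gene as a black bar and annotated start sites as red arrowheads. Columns of 6 points are regions found in every library, and Aen has a column of 3 AD/- points 6026 bp upstream while Polk has a column of 3 null points in the gene body.

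Of the 11 genes of cell death and its signals, 10 had a gene-end summit in every library. Apaf1, the scaffold of the apoptosome, ranked highest, at percentiles of 99.1, 99.0 and 98.1 in AD/- and 99.4, 99.6 and 98.9 in null. Its summit was also within 1 kb of an end of Ikbip. Trp53inp1, a nuclear protein that promotes p53-dependent death, followed at 97.2, 98.1 and 96.8 in AD/- and 97.1, 96.7 and 96.6 in null. Aen, an apoptosis-enhancing nuclease, had its promoter summit 36 to 76 bp before the first start at percentiles of 92.9, 92.3 and 92.7 in AD/- and 94.0, 95.0 and 92.7 in null. These 3 gene-end summits ranked near the top of every list, and the values of the genotypes overlapped at each.

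Gene-end summits of the death receptors ranked lower. Fas, the receptor for Fas ligand, had a summit 23 to 41 bp before its start at percentiles of 72.9, 77.0 and 70.1 in AD/- and 75.9, 75.4 and 72.4 in null. Tnfrsf10b, the mouse TRAIL receptor, ranged from 34.6 to 55.5 over the 6 libraries. The receptor gene Eda2r, on chromosome X, had no summit in the gene or within 20 kb of it in any library. The nearest one lay 54430 to 54456 bp upstream of its start in AD/- libraries 1 and 2 and null library 2, and 771506 to 771516 bp upstream in the other 3. Pidd1, which assembles the PIDDosome with caspase-2, had a summit near its outer gene end at 92.8 to 94.1, within 1 kb of an end of Rplp2, and a separate one 11 to 27 bp inside its annotated start at 61.8 to 66.3. The RNA-binding protein gene Zmat3 ranged from 86.9 to 90.6. Phlda3, an inhibitor of the kinase Akt, ranged from 73.5 to 82.9. Ei24, a membrane protein of the endoplasmic reticulum, ranged from 73.1 to 81.8, and Perp, a membrane protein of desmosomes, from 60.9 to 72.7.

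All 5 genes of DNA repair and nucleotide supply had a merged region at a gene end in every library. Rrm2b, a subunit of the ribonucleotide reductase that supplies nucleotides for repair, stood at percentiles of 99.4, 99.3 and 98.5 in AD/- and 98.8, 98.8 and 99.2 in null. Polk, a translesion DNA polymerase, stood at 96.0, 97.0 and 96.5 in AD/- and 97.5, 98.3 and 97.2 in null. The summits of both genes fell on the same base in all 6 libraries, 37961177 on chromosome 15 for Rrm2b and 96542613 on chromosome 13 for Polk. At Polk each null rank was above each AD/- rank, and at Rrm2b the genotypes overlapped. As at Gadd45a, such ranks measure no change, and the share of all genes that separate in this way was not computed. Ddb2, which recognises ultraviolet damage, stood at 96.2, 93.9 and 94.4 in AD/- and 94.5, 94.0 and 94.6 in null. Xpc, which starts nucleotide excision repair, stood at 93.9, 93.9 and 93.5 in AD/- and 95.0, 93.4 and 93.8 in null, with its summit also within 1 kb of an end of Lsm3. Ercc5, the excision repair endonuclease, was counted at its gene end in 5 libraries only. Its summits lay 981, 1011 and 981 bp inside the gene in AD/- and 997, 974 and 980 bp inside it in null, so the 1 kb limit fell among them. Measured from the RefSeq start site they lay 178 to 215 bp away in all 6 libraries, at percentiles of 89.7 to 94.8.

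The 5 genes of metabolism and oxidative stress had a gene-end summit in every library. Tigar, a phosphatase that lowers glycolytic flux, stood at percentiles of 96.7, 96.5 and 94.3 in AD/- and 97.2, 95.6 and 95.3 in null. Sesn1, a sestrin that restrains mTORC1 under stress, had 2 open start sites. The outer one had summits 346 to 438 bp before it at 96.2, 97.0 and 94.8 in AD/- and 95.8, 93.6 and 96.6 in null, within 1 kb of an end of Cep57l1. The inner one, whose sequence is printed above, had summits 2 to 9 bp inside it at 97.0, 97.7 and 94.0 in AD/- and 94.9, 93.3 and 96.3 in null. The related gene Sesn2 ranged from 92.3 to 96.6. Ephx1, an epoxide hydrolase, ranged from 75.6 to 80.9. Gls2, a mitochondrial glutaminase, stood at 78.0, 81.6 and 71.7 in AD/- and 78.2, 79.1 and 80.1 in null.

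The 3 genes of growth factors and receptors were the most variable group, and only Gdf15 had a gene-end summit in every library. Gdf15 encodes a secreted stress hormone. Its summit, at percentiles of 94.0, 94.9 and 95.1 in AD/- and 96.4, 94.9 and 95.7 in null, lay inside the gene near its 3′ end. It was 2168 to 2588 bp from the annotated starts, neither of which had a summit within 1 kb in any library. Tgfa, which encodes the EGF receptor ligand TGF-alpha, had a summit 46 to 51 bp before its start in 5 libraries, at percentiles of 40.2 and 43.3 in AD/- libraries 1 and 2 and 28.7, 24.8 and 33.2 in null. AD/- library 3 had none, and its nearest summit was 53227 bp away. The ephrin receptor gene Epha2 had a summit 940 to 946 bp inside its start in AD/- library 2 (percentile 34.1) and in all 3 null libraries (24.8, 24.6 and 20.2). AD/- libraries 1 and 3 lacked it. All 6 libraries had a region 5151 bp upstream of Epha2, at percentiles of 61.3 to 72.9. At Rprm, Tgfa and Epha2, the libraries that had the summit ranked it low or in the middle, whereas at Ercc5 it ranked high.

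The 2 feedback genes were open in every library. Ppm1d, the phosphatase Wip1 that dephosphorylates p53 and its kinases, stood at percentiles of 95.2, 96.8 and 93.5 in AD/- and 96.0, 93.1 and 95.6 in null. Fbxw7, the substrate receptor of a ubiquitin ligase that degrades cyclin E, MYC and NOTCH, stood at 98.9, 99.4 and 99.2 in AD/- and 99.3, 99.7 and 99.4 in null. That summit lay 511 to 581 bp outside the annotated gene and more than 1 kb before the first RefSeq start. Within 1 kb of the 3 RefSeq starts of Fbxw7 there was a summit at the first in null library 2 (percentile 60.6) and at the last in AD/- library 2 and null library 3 (2.26 and 0.476), and no library had one at the middle start.

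Counting RefSeq start sites in place of gene ends, 22 of the 29 matched genes (75.9%) had a summit within 1 kb of at least 1 start in every library, compared with 55.2% of 17274 genes. Cdkn1a, Rprm, Tgfa, Epha2 and Fbxw7 had one in some libraries (17.2%, and 5.49% of all matched genes), and Gdf15 and Eda2r in none (6.9% and 39.3%). No matched gene was called for either genotype. Over all matched genes 0.0289% were called for AD/- and 0.0174% for null. Where a start site had a summit in every library, the position was repeatable. Over 26 such starts the median position was 36 bp before the start, and the median distance between the outermost of the 6 summits was 40.5 bp. Over 11206 such starts of all genes these values were 28 and 50 bp. The 6 summits at the first Polk start coincided, and those at the inner Sesn1 start spanned 7 bp. Only these 2 of the 26 starts (7.69%) had a span of at most 10 bp, compared with 13.1% over all genes. The widest spans were 292 bp at Phlda3, 196 bp at Sfn and 139 bp at Ppm1d.

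**Figure D3:**
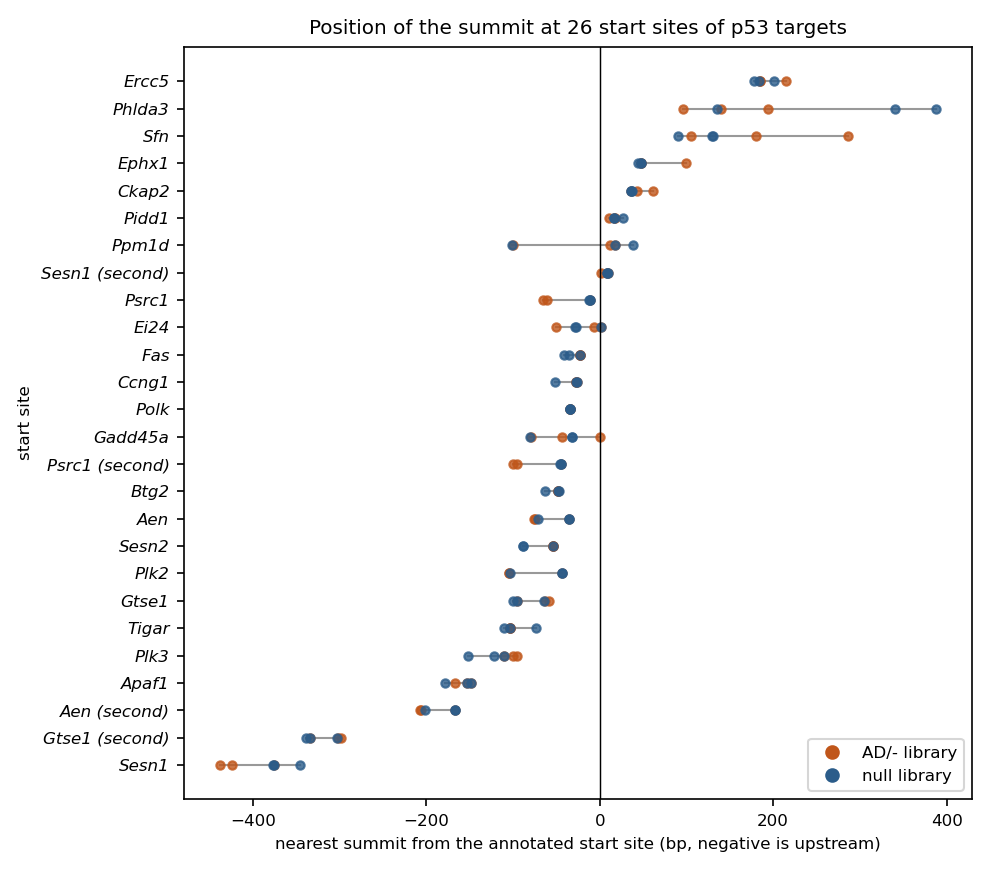
Nearest summit of each library, in bp from the annotated start site with negative values upstream, at the 26 start sites of p53 targets with a summit within 1 kb in all 6 libraries. Orange AD/- points and blue null points intermix, most starts have summits within 150 bp, and the widest span, 292 bp, is at Phlda3.

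The promoter windows were searched on both strands from 250 bases before to 50 after each start, 300 bases in all. The p53 decamer, searched by its consensus, was found in 11 of 38 windows (28.9%), which belong to 10 genes, and in 7.37% of the 21037 windows of all genes. These genes are established p53 targets, so a higher share among them is no independent evidence. The matches read GGGCTAGCCC at Gadd45a, GGGCTTGTCC at Aen, AGACATGTCC at Ckap2, GGGCATGCCC at Ei24, AAGCTTGTTT at the inner Sesn1 start, GGGCAAGCCT at Ccng1, GAGCTTGCTC at Ppm1d, GAACTAGCCT at the inner Polk start and GGGCTTGCCT at Gtse1. The windows of the 2 neighbouring Aen starts share a single match. Cdkn1a alone had 2, GGACTAGCTT from 73 to 64 bases and GAACATGTCT from 51 to 42 bases before its upstream start. A pair of decamers at most 13 bases apart occurred in 10 windows of all genes (0.0475%). Of the 11 windows with a decamer, 9 had a summit within 1 kb in every library, and 2 had none in any, the upstream Cdkn1a start and the inner Polk start. Among the other 27 windows, 17 had one in every library. A match describes the letters of the window and not binding by p53.

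Of the other motifs searched, GC boxes (GGGCGG) were in 71.1% of the windows of these genes and 46.7% of all windows, and CCAAT in 52.6% and 38.5%. The CHR element TTTGAA was in 15.8% and 15.6%, the E-box CACGTG in 10.5% and 7.91%, the TATA box TATAAA in 7.89% and 12.7%, and the ETS motif CCGGAAG in 5.26% and 11.7%. The number of CpG dinucleotides moved with detection. The median was 22.5 in the 26 windows with a summit in every library, 21 in the 6 with a summit in some, and 3 in the 6 with none. Over all genes the medians were 22, 12 and 3. The 2 starts of Cdkn1a differed in the same way, with 2 CpGs at the upstream start and 23 at the inner start. Eda2r had 5, and the Gdf15 starts had 1 and 7. Other starts went the opposite way. Sfn and Ephx1 had 4 and 5 CpGs with a summit in every library, and the first Fbxw7 start had 24 with a summit in 1 library. The part of base composition in these differences was not tested.

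Taking gene ends and distal regions together, most of the 227 regions were common to both genotypes. A summit was found in every library in 137 (60.4%) and in a single library in 31 (13.7%), compared with 53.4% and 16.0% of the 60735 regions within 20 kb of any protein-coding gene. By position, 34 of 43 regions at gene ends, 30 of 61 in gene bodies and 73 of 123 in the flanks were found in every library. The same split by position was not computed for the regions near all genes. The nearest gene end belonged to the p53 target itself at 145 of the 227 regions, and 34 regions lay within 1 kb of an end of another gene, so a region near a target is not shown to act on it. The median was 6 regions per gene, and 3 over all genes. The median percentile of the regions found in every library was 69.7, and 66.2 near all genes. At the edge of the 20 kb limit, the last regions counted lay 19935 bp from Btg2 and 19857 bp from Sfn, both in all 6 libraries, and the first ones left out lay 20099 bp from Ddb2, in 1 null library, and 20600 bp from Phlda3, in all 6.

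**Figure D4:**
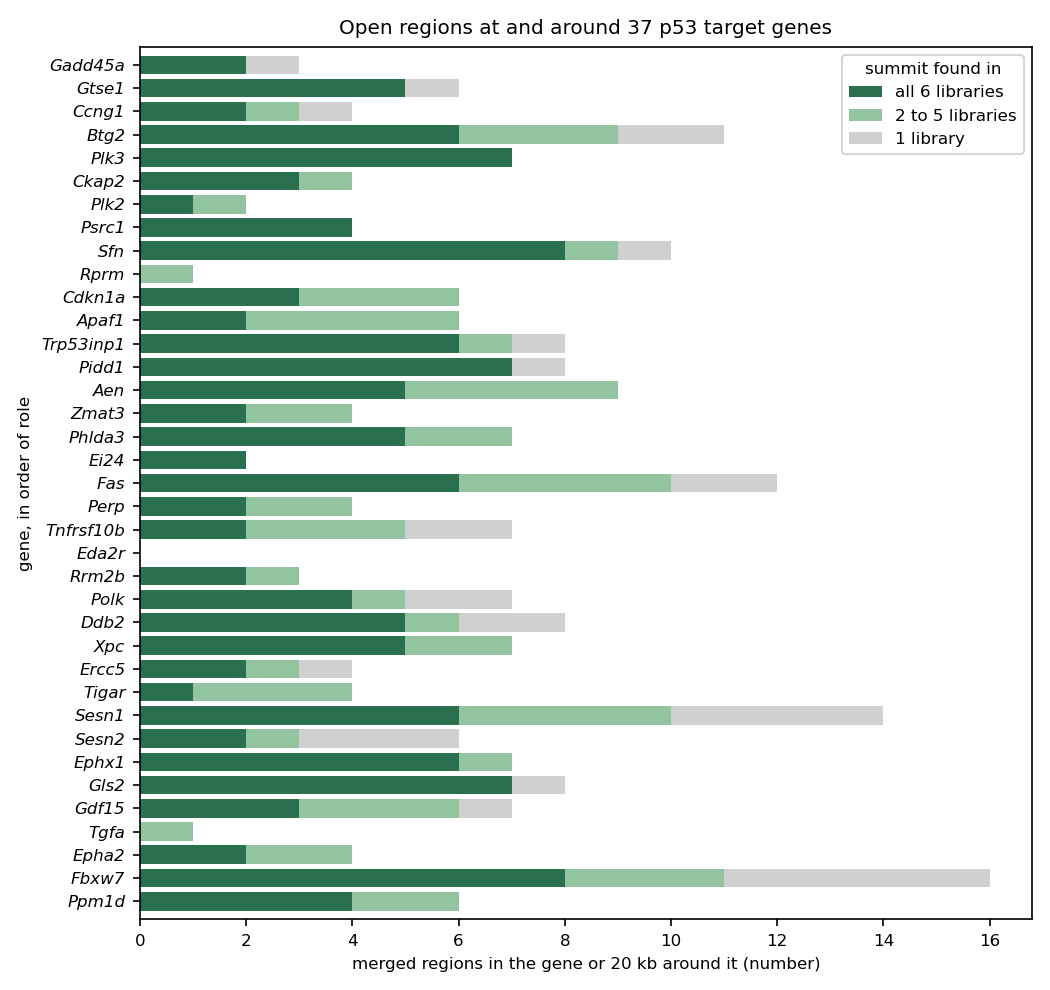
Number of merged regions in each gene or within 20 kb of it, split by how many of the 6 libraries had a summit there, with genes in order of role. Fbxw7 has 16 regions, Sesn1 14 and Fas 12, Rprm and Tgfa have 1 each, and Eda2r has none.

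Cell cycle genes had 58 regions, 41 of them in every library. At Btg2, 6 of 11 regions were in every library. They included regions 13788 bp downstream (percentiles 93.3 to 96.1, nearest to Fmod), 7527 bp downstream (86.0 to 92.0) and 13986 bp upstream (86.5 to 90.8), which ranked beside its promoter. At Sfn, 8 of 10 were in every library, and the highest, 16236 bp downstream at 81.6 to 87.1, lay within 1 kb of the ends of Gpatch3 and Gpn2. All 7 regions of Plk3 and all 4 of Psrc1 were in every library. The 2 highest regions of Psrc1, 1180 bp downstream (84.1 to 87.2) and 13688 bp downstream (88.2 to 93.5, nearest to Celsr2), ranked above its promoter. Ccng1 had 4 regions and Gadd45a 3, with 2 in every library at each.

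Cell death genes had 67 regions, 39 of them in every library. Fas had 12, and 6 were in every library. A region 2801 bp upstream of Fas, at percentiles of 79.2 to 88.0, ranked above the promoter in each list, and 3 regions in the gene body stood at 45.8 to 64.8, 37.5 to 54.2 and 47.1 to 67.1. Aen had 9 regions, 5 of them in every library, including one 5105 bp upstream (42.1 to 54.4). Trp53inp1 had a region 9208 bp outside the gene at 80.1 to 87.8. At Tnfrsf10b the highest-ranked regions lay inside the gene. A summit near 69774483 was found in 5 libraries, at 71.1 to 81.0, and AD/- library 1 had one 547 bp away at 69775030 (77.6), so merging placed them in 2 regions. Ei24 had 2 regions, both in every library, and the one 11372 bp downstream, at 99.0 to 99.3, was within 1 kb of an end of Stt3a.

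The other groups had fewer regions. Repair genes had 29 regions, 18 of them in every library. Ddb2 had 8, among them one 8695 bp outside the gene at 81.4 to 86.5, near ends of Acp2 and Nr1h3. Xpc had 7, with a gene-body region at 78.1 to 85.5. Metabolism genes had 39 regions, 22 of them in every library. Sesn1 had 14, of which 11 were in the gene body and 6 in every library, and Gls2 had 7 of 8 in every library. Sesn2 had a region 5168 bp upstream at 87.3 to 91.6. Feedback genes had 22 regions, 12 of them in every library, 16 at Fbxw7 over a gene of 164209 bp and 6 at Ppm1d. The growth factor group had 12, and 5 were in every library.

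Between the genotypes, 1 of the 227 regions (0.441%) was found in all AD/- and no null libraries, and 1 (0.441%) in all null and no AD/- libraries. Over the regions near all genes the shares were 0.17% and 0.415%, and over all regions 0.179% and 0.418%, so counts of 1 lie near the background. The AD/- region lay 6026 bp upstream of Aen, at chr7:78889648-78890153, with summits at 78889901, 78889898 and 78889903 and percentiles of 13.4, 31.9 and 19.6. All 3 null libraries had a summit 911 to 970 bp from its centre, in a neighbouring region found in all 6. The null region lay in the body of Polk at chr13:96516205-96516706, 2731 bp inside the inner start, at percentiles of 20.2, 8.74 and 20.6. The nearest AD/- summits were 5639 to 5669 bp away. Both regions ranked in the lower part of the lists. Keeping the 44492 best summits of each library left neither call.

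With the rule loosened to 2 or 3 of 3 against 0 of 3, 3 regions (1.32%) leaned to AD/- and 4 (1.76%) to null, compared with 1.46% and 2.32% near all genes. The additions were at Ephx1 (percentiles 6.53 and 4.06) and in Sesn1 (40.6 and 36.3) for AD/-, in both cases in AD/- libraries 1 and 2. For null they were near Phlda3 (23.1 and 12.5) and Perp (12.1 and 7.66), both in null libraries 2 and 3, and in Apaf1 (20.2 and 33.2), in null libraries 1 and 3. Leaving out a library also loosens the rule, and the shares near all genes were not computed for it. Without AD/- library 3 the AD/- count rose to 3, with Ephx1 and Sesn1 added. The null count was 2 without AD/- library 1 (Xpc added), 2 without AD/- library 2 (Epha2 added), 3 without null library 1 (Perp and Phlda3 added) and 2 without null library 2 (Apaf1 added). The Aen and Polk regions were called each time, which this looser rule made certain, so it is no check of either call.

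The number of regions detected was lowest in the shortest list, AD/- library 3, and highest in the longest, AD/- library 2. The AD/- libraries had summits in 181, 191 and 154 of the 227 regions and the null libraries in 175, 178 and 184. The means were 175 ± 19.1 and 179 ± 4.58 (SD, n = 3 each), a difference of -3.67 that is smaller than the spread in AD/-. Without AD/- library 3 the difference was 7. As shares of the 227 regions these are 77.2% ± 8.43 and 78.9% ± 2.02, compared with 72.5% ± 10.5 and 76.3% ± 2.52 of the regions near all genes. AD/- library 3 was also the missing library at 9 of the 19 regions found in 5 libraries, and at 73.0% of such regions near all genes. No gene had more regions in every AD/- library than in every null library, or fewer. Over all genes the shares were 0.319% and 0.837%.

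**Figure D5:**
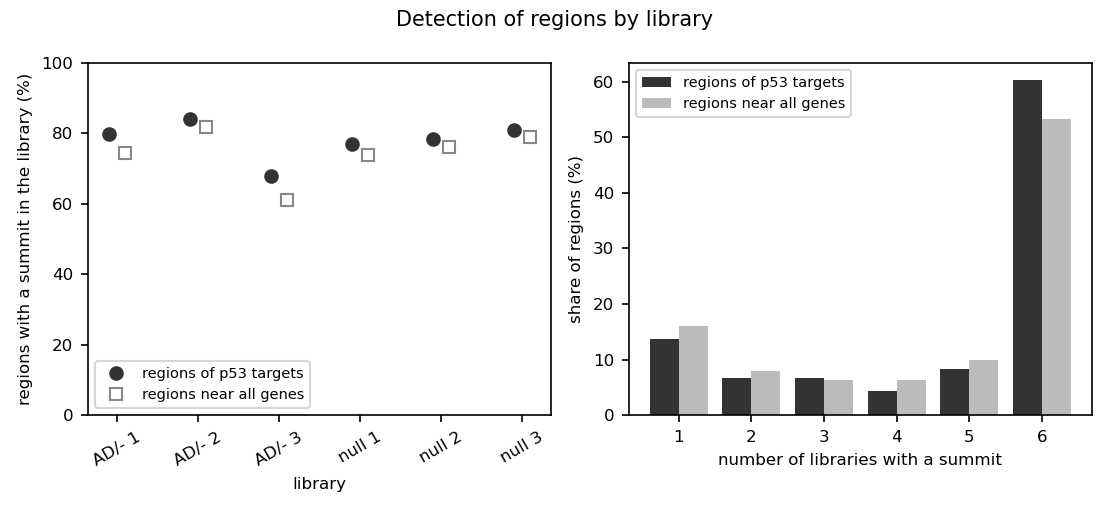
Left, the percentage of regions with a summit in each library, for regions of p53 targets (filled circles) and regions near all genes (open squares), and right, the share of regions by the number of libraries with a summit. AD/- library 3 is lowest for both sets, at 67.8% and 61.1%, and 60.4% of the regions of p53 targets are in all 6 libraries, compared with 53.4% near all genes.

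A further list of 22 genes of the p53 pathway that are not among the 37 was measured in the same way, and 21 matched. Of these, 14 had a gene-end summit in every library, among them Mdm2, the ubiquitin ligase that degrades p53, and the pro-apoptotic genes Bax and Pmaip1. Ak1, Bbc3, Lif, Mdm4 and Steap3 had none in any library. At Bbc3 (the death gene Puma), Mdm4 and Steap3, a RefSeq start site had a summit within 1 kb in all 6. Sulf2 had a gene-end summit in 1 AD/- and 3 null libraries and Cpt1c in 1 and 2. Their 111 regions included 72 (64.9%) found in every library, and none was found in all libraries of a single genotype and in none of the other.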

How the data were processed

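ATAC-seq of 6 thymus libraries (3 AD/-, 3 null) was analysed from 1 summit list per library, in which the authors deposited each summit's position and a score read as the −log10 of the q-value, since the lowest scores lie near 1.3, the value of q = 0.05. Peaks were called per library. The submitters' processing notes name the build GRCm38 and the tools MACS2 2.1.2, Picard 2.9.0, Bowtie2 2.3.4.2 and Trim Galore 0.4.5. Their settings, any shift of reads for the transposase, duplicate removal and masking are not given in the sources used here, and read depth is unknown.

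After summits off chromosomes 1 to 19 and X were left out, the rest were widened by 250 bp per side and overlaps were merged (Python 3.11.15, pandas 2.3.3, NumPy 2.4.6, Matplotlib 3.10.9). Gene ends came from RefSeq's gene table on GRCm38.p6, and start sites, strand and sequence from its promoter table. A call required 3 of 3 libraries of a genotype against 0 of 3 of the other, and was read against the same count over all genes or regions. The scripts were tested on simulated data. Named with values in every library were genes whose gene-end state differed between libraries or was absent in all, genes with a called region, and in each role group the 2 with the highest gene-end ranks and the 2 with the most regions. Regions singled out beyond this rule were chosen after their values were seen. The members, role groups and other lists were chosen with earlier results of these data known. Alternatives changed the extension, score minimum, list length, gene-end distance, flanking window and call rule, and left out each library in turn. Replicate numbers follow the order of deposition.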

Additional observations from a re-analysis of the deposited data

How the results depend on the processing

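Of 96 values recomputed under other settings, 81 stayed within a set tolerance and 15 moved. For a count, the tolerance was a fixed ratio to the main value, so the 81 include counts that changed. The 31 genes with a gene-end summit in every library, which became 22 by start sites, are an example. For the mean difference in regions per library, the tolerance was the larger SD of the 2 genotypes. A change of its sign could therefore stay within the tolerance. The 1 region found in AD/- alone became 0 with 500 bp per side, with lists of equal length, with a window of 5 kb, and with no summit of the other genotype allowed within 2 kb, and 3 under the rule of 2 or 3 of 3 against 0 of 3. It ranged from 1 to 3 when single libraries were left out. The 1 region found in null alone became 0 with lists of equal length and 4 under the looser rule, and ranged from 1 to 3 when single libraries were left out. Genes with a gene-end summit in null alone ranged from 0 to 1, the 1 being Epha2 without AD/- library 2, and those in AD/- alone stayed at 0. Leaving out a library loosens the rule for a call and the need for a summit in all libraries. Such counts stay or rise by construction, so their ranges are no check that a call holds. The 137 regions found in all libraries became 81 with a window of 5 kb and 236 with one of 50 kb, because the window sets how many regions are counted, and ranged from 138 to 146 when single libraries were left out. The difference in regions per library of -3.67 ranged from -11.5 to 7 in that way, and only leaving out AD/- library 3 reversed its sign. It was -0.667 with lists of equal length, 0 with a window of 5 kb and -9 with one of 50 kb. The AD/- region at Aen lay 6026 bp upstream, outside a window of 5 kb. Null summits lay 911 to 970 bp from its centre, within the 2 kb limit, and an extension of 500 bp per side joined them to it. The cause of the remaining changes was not tested. Genes with a summit in all libraries numbered 22 of 29 by start sites. No paired analysis was possible because the replicate numbers only follow the order of deposition. Summit lists carry no read counts, so the part of read depth in the differences between libraries was not tested.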
